A study of Mus musculus with 2 samples.

Results

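The genes described here encode 10 SR proteins: Srsf1, Srsf2, Srsf3, Srsf4, Srsf5, Srsf6, Srsf7, Srsf9, Srsf10 and Srsf11. Members were all transcripts of any class whose gene symbol in GENCODE M21 was one of these names. The annotation lists 85 such transcripts. Of these, 72 were among the 121429 exon rows of the deposited table and the other 13 were not analysed here. The 72 comprised 26 protein-coding, 12 nonsense-mediated decay, 22 retained-intron and 12 processed transcripts. All 72 had a mean exon value of at least 10 in the deposited unit and a value above 0 in both libraries. Of these, 2 (Srsf9-202 and Srsf11-219) were under 10 in a library and passed only through the library where they were high, so each had to differ between the libraries.

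The cells were wild-type mouse embryonic stem cells of the DTCM23/49 XY line, grown without feeders and with leukemia inhibitory factor. They were given 4-thiouridine (4sU), a nucleoside that is incorporated into RNA during transcription, at 200 µM for 10 min. RNA carrying 4sU (labeled) was separated from the rest (unlabeled), and each pool was sequenced as 1 library of replicate 1. Labels of the second library name it both as preexisting and as total RNA; here it is called unlabeled. No difference below has a replicate check, and no test was made. Values are relative abundances called TPM, but on a scale 10 times that of TPM, with no counts, so the depth is unknown. Among the marker genes, the 8 of embryonic stem cells had summed exon values of 87.4 to 3263 in labeled and 72.9 to 2831 in unlabeled RNA. The 5 fibroblast markers reached no more than 6.03 and 14.5, and Postn and Lum were listed at 0. The summed neural markers had 139 and 153, nearly all from Pax6, those of primitive endoderm 4.87 and 5.88 and those of mesoderm 0.52 and 0.29. The part of such cells in the values below was not tested.

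SR proteins bind exonic RNA through RNA recognition motifs and recruit the splicing machinery through a domain rich in arginine and serine, and several shuttle to the cytoplasm and take part in mRNA export. Many of their genes carry an alternative exon with a premature stop codon, called a poison exon. A transcript that includes it is a substrate of nonsense-mediated decay, the pathway that degrades mRNAs whose stop codon lies well upstream of the last exon junction, and inclusion is promoted by SR proteins themselves, which closes a feedback loop. Other SR transcripts keep an intron and stay in the nucleus.

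In the annotation, a poison exon was taken as an internal exon of a nonsense-mediated decay transcript that lies inside an intron of the most abundant protein-coding isoform and overlaps no coding sequence of coding isoforms that lack it. By this definition the exon was held by isoforms of Srsf2, Srsf3, Srsf4, Srsf7, Srsf9 and Srsf11. The stretches below run from the first base of the exon to the premature stop codon, which is in capitals, and are shown because this stop sets the poison isoform apart from the coding isoform. They were read 5′ to 3′ from the GENCODE M21 transcripts (GRCm38). The frame of Srsf9 is that of Srsf9-205, a decay isoform that was not analysed here, and the exon was measured in Srsf9-202.
Srsf3-201, chr17:29039454-29039487, plus strand: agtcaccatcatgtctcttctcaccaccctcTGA
Srsf4-203, chr4:131884276-131884390, plus strand: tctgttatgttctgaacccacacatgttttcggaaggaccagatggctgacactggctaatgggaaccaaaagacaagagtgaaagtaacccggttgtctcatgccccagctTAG
Srsf9-205, chr5:115328347-115328428, plus strand: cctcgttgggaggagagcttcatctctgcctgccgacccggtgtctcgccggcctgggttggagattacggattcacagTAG
Srsf11-206, chr3:158024209-158024231, minus strand: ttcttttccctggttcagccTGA
Srsf11-212, chr3:158023310-158023359, minus strand: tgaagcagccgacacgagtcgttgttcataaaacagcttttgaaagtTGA

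The exon of Srsf3 is 456 bases long, and its stop is reached after 34 bases. The open reading frame of Srsf3-201 then holds 124 codons, against 164 in the coding isoform Srsf3-202, and the stop lies 548 bases upstream of the last exon junction. In Srsf11-206 the reading frame holds 112 codons against 476 in Srsf11-202. Srsf2 differs from these genes. Its poison exon of 104 bases (chr11:116851648-116851751, minus strand) follows the normal stop codon, and Srsf2-202 keeps all 221 codons. The exon of Srsf7 is 460 bases long, but the isoform that holds it, Srsf7-203, was not analysed here. In Srsf6-201 the premature stop lies in an exon of 268 bases (chr2:162932815-162933082, plus strand). This exon fell outside the definition, because the coding isoform Srsf6-202 shares part of it.

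The exon values of all isoforms of a gene were summed to give its level. Srsf2, an SR protein that stays largely in the nucleus, had the highest level, with 11927 in labeled and 26723 in unlabeled RNA. Srsf5 followed with 7842 and 10747. Both genes were thus higher in unlabeled RNA as deposited. Srsf3, the smallest SR protein and a factor in splicing and mRNA export, had 5496 in labeled and 4805 in unlabeled RNA. Srsf11 had 3597 and 3757 in the same order. Srsf1, the founding SR protein, had 1885 in labeled and 3077 in unlabeled RNA. Srsf10, which acts as a splicing repressor once dephosphorylated, had 1726 and 3668. Srsf1 and Srsf10 thus changed places between the libraries, which without replicates cannot be read as a difference.

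The other genes were lower. Srsf6, which binds purine-rich exonic enhancers, had 561 in labeled and 894 in unlabeled RNA, and Srsf7, from its only isoform analysed, had 486 and 465. Srsf4 had 146 in labeled and 325 in unlabeled RNA, and Srsf9 had 193 and 207. Srsf4 and Srsf9 also changed places between the libraries. On this length-normalized scale, unlabeled levels of the 10 genes ran from 207 to 26723. In all, the members took 0.400% of the exon value in labeled and 0.583% in unlabeled RNA. As the RNA is bulk, fewer cells with a transcript and less of it per cell cannot be told apart.

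**Figure D1:**
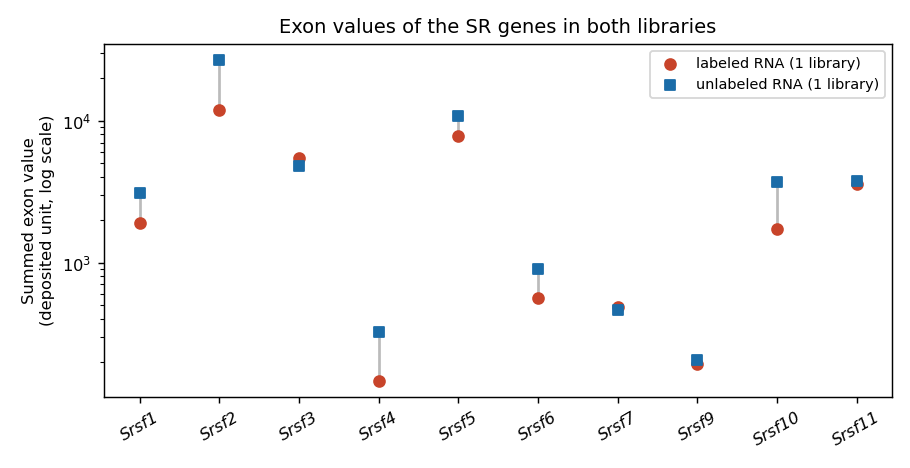
Summed exon values (deposited unit, log axis) of the 10 SR genes, with 1 point for the labeled library and 1 for the unlabeled library, so that there is no error bar. The points of Srsf2, Srsf4 and Srsf10 lie farthest apart, and those of Srsf3 and Srsf7 have the labeled value on top.

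To compare the pools, the log2 ratio of labeled to unlabeled exon value was taken relative to the median of all 48256 transcripts that passed the same filter, which was -0.25 as deposited. On this scale the gene sums were below 0 in 6 of the 10 genes, where 47.2% of all 14756 genes were below 0. Without the centring 8 of the 10 were below 0, and the share of all genes was not taken. The lowest were Srsf2 at -0.92, Srsf4 at -0.91 and Srsf10 at -0.84, and 15.2%, 15.5% and 17.5% of all genes lay below them. Srsf1 at -0.46, Srsf6 at -0.42 and Srsf5 at -0.21 lay closer to the middle of all genes, and Srsf5 was above the median of all protein-coding transcripts, -0.28. The sums of Srsf9 (0.14), Srsf11 (0.18), Srsf7 (0.31) and Srsf3 (0.44) were above 0, and 60.9% of all genes lay below Srsf3. None of the 10 gene sums was 2-fold from the median, where 13.3% of all genes were at least 2-fold below it and 26.1% at least 2-fold above it. The family thus held no common direction, and its genes lay between the lower part and the upper middle of all genes.

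Across the 72 isoforms, the median log2 ratio was -0.33, and 25 were above 0. At least 2-fold below the median of all transcripts were 10 isoforms, or 13.9%, beside 16.4% of all transcripts. At least 2-fold above it were 4 isoforms, or 5.56%, beside 25% of all transcripts. Srsf9-202 is in the count below and Srsf11-219 in the count above, and each passed only through the library where it was high. The protein-coding isoforms had a median of -0.33 (range -1.45 to 0.45), beside -0.28 for all 22488 protein-coding transcripts. The nonsense-mediated decay isoforms had a median of -0.22 (range -1.01 to 1.17), beside -0.26 for all 2894 of that class. The retained-intron isoforms had a median of 0.19 (range -1.17 to 2.44, or to 1.94 without Srsf11-219), beside 0.18 for all 8161 of that class. The medians of these 3 classes therefore stood near those of the same classes in the whole table. The processed transcripts stood farther off, with a median of -0.76 beside -0.08 for all 5234, and 6 of the 12 belong to Srsf10. The sign of these medians depended on the scale: that of the retained-intron isoforms was -0.060 without centring, and that of the decay isoforms was 0.067 when protein-coding transcripts were the centre. With a minimum of 100 on the mean exon value, the coding median was 0.011 and the decay median 0.31.

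**Figure D2:**
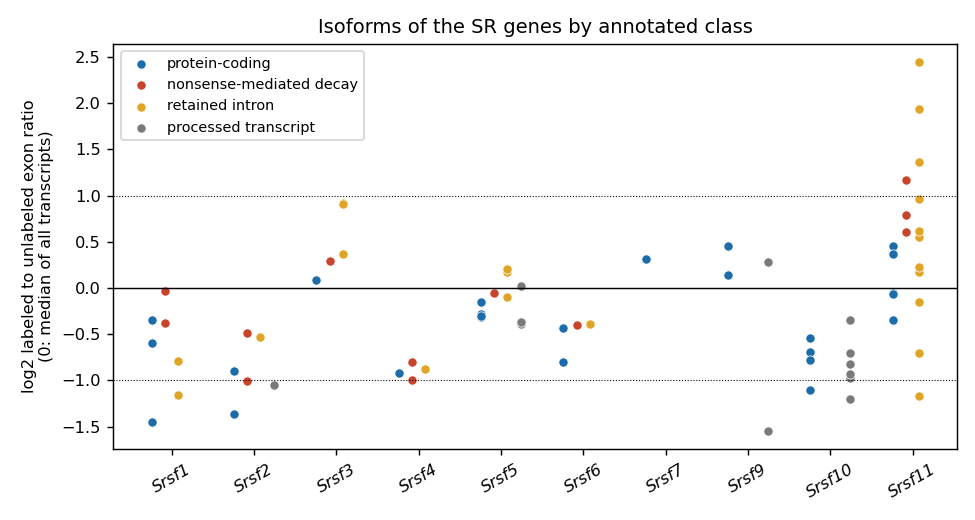
Log2 ratio of labeled to unlabeled exon value of each of the 72 isoforms (points), by gene and annotated class, relative to the median of all transcripts (0), with dotted lines at 2-fold. Most isoforms lie between -1 and 1, and those of Srsf11 spread from -1.17 to 2.44. All isoforms of Srsf1, Srsf2, Srsf4, Srsf6 and Srsf10 lie below 0.

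Isoforms of the same gene were compared next, because the centring cancels in the difference, although not all of them start at the same site. Summed within each gene, the nonsense-mediated decay isoforms had a higher log2 ratio than the protein-coding isoforms in 7 of the 7 genes that had both, with a median difference of 0.22. Over all 1782 genes with both classes, 45.8% had a difference above 0, and the median was -0.03 (quartiles -0.27 and 0.20). At the main setting, none of the 7 differences reached 2-fold, which 3.2% of all genes did. With 1 library per pool, a difference of this size cannot be set against replicate error, and 5 of the 7 rest wholly on decay isoforms with a transcript support level of 3 or worse. With only isoforms of level 1 or 2, Srsf2 and Srsf3 remained, both above 0.

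In Srsf1 the decay isoforms Srsf1-204 and Srsf1-207 summed to 1012 in labeled and 1329 in unlabeled RNA. Its coding isoforms summed to 662 and 1307. The decay isoforms made up 53.7% of the labeled and 43.2% of the unlabeled value of the gene, a difference in log2 ratio of 0.59. In Srsf2 the decay isoforms summed to 4515 in labeled and 8353 in unlabeled RNA, and the coding isoforms to 3162 and 8777. The coding sum includes Srsf2-206 (1050 and 2330), which holds the poison exon. The decay sum includes Srsf2-204 (3338 and 5545), which does not hold it. The difference was also 0.59, and fell to 0.22 when only isoforms with support level 1 or 2 were kept. Its main coding isoform Srsf2-201, at 2112 in labeled and 6447 in unlabeled RNA, had the third lowest log2 ratio of all members, -1.36.

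In Srsf3 the poison isoform Srsf3-201 had 1172 in labeled and 1137 in unlabeled RNA. The coding isoform Srsf3-202 had 871 and 974. The poison isoform thus exceeded the coding isoform in both pools, and the difference in log2 ratio was 0.20. Most of the value of this gene lay in its 3 retained-intron isoforms, which took 62.8% of the labeled and 56.1% of the unlabeled value. Srsf3-204 among them takes in all bases of the poison exon within a longer exon. Srsf3-205, with 1807 in labeled and 1661 in unlabeled RNA, starts inside the poison exon and so shares part of its sequence. In Srsf5 the decay isoform Srsf5-208 had 565 in labeled and 697 in unlabeled RNA, a difference of 0.22 from coding. In Srsf6 the isoform Srsf6-201 had 157 and 245 and differed by 0.07. In Srsf4 the isoforms Srsf4-203 and Srsf4-204 together had 31.9 in labeled and 71.8 in unlabeled RNA, and differed by 0.0021. They made up 21.9% of the labeled and 22.1% of the unlabeled value. When the most abundant isoform stood for each class, the difference of Srsf4 was -0.08, and it was the only one of the 7 genes to change sign.

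In Srsf11 the 3 decay isoforms had 556 in labeled and 363 in unlabeled RNA, against 1208 and 1463 for the 5 coding isoforms. The difference of 0.89 was the largest of the 7. It passed 2-fold, at 1.14, with the most abundant isoform of each class, and at 1.06 after the leakage subtraction described below. The share of all genes was not taken under these settings. The decay isoforms made up 15.5% of the gene in labeled and 9.66% in unlabeled RNA. Where the isoforms of Srsf11 end within the gene moved with their log2 ratio, as described further on.

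Poison exons themselves were compared in the same way. An isoform counted as holding one only if it had an exon with the same bounds. The retained-intron isoforms Srsf3-204 and Srsf4-201, which take in a poison exon within a longer exon, were thus not counted. Isoforms that hold a poison exon had a higher log2 ratio than the coding isoforms without it by 0.40 in Srsf2, 0.20 in Srsf3, 0.0021 in Srsf4 and 0.89 in Srsf11, a median of 0.30 over these 4 genes. In Srsf9 the only such isoform analysed was Srsf9-202, annotated as a processed transcript and not as a decay isoform. It had 8.15 in labeled and 28.3 in unlabeled RNA, beside 142 and 137 for the coding isoforms. Since it passed the filter only through its unlabeled value, no direction is drawn from it for Srsf9.

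**Figure D3:**
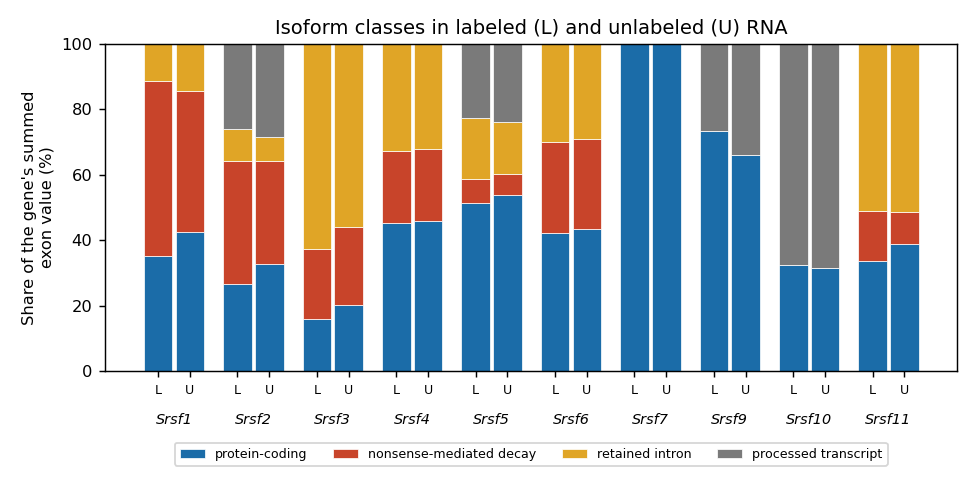
Share (%) of the summed exon value of each SR gene that its annotated isoform classes took in labeled (L) and unlabeled (U) RNA, with 1 library each. The decay share of Srsf1 is 53.7% in L and 43.2% in U, the retained-intron share of Srsf3 is 62.8% and 56.1%, and in Srsf4 and Srsf6 the bars are nearly the same.

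Retained-intron isoforms had a higher log2 ratio than the coding isoforms of their gene in 6 of the 7 genes with both. Over all 3477 genes with both classes, 70.1% had a difference above 0. The median difference was 0.20 in the members and 0.28 over all genes. At the main setting none of the members reached 2-fold, which 20.9% of all genes did. After the leakage subtraction described below, Srsf2 passed it at 1.13, and the share of all genes was not taken. The SR genes therefore lay within what the whole table showed for this class. The largest difference was 0.70 in Srsf2, where Srsf2-203 had 1161 in labeled and 1985 in unlabeled RNA. Srsf3 followed with 0.52, from sums of 3453 in labeled and 2694 in unlabeled RNA over 3 isoforms. In Srsf5 the difference was 0.33 and in Srsf11 0.20, but -0.36 in Srsf11 when only the most abundant isoform of each class was used. Srsf6 (0.08) and Srsf4 (0.05) showed almost none. Srsf1 had -0.08, from sums of 211 in labeled and 440 in unlabeled RNA.

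Isoforms of Srsf11 covered the widest range of any member gene, 3.61 on the log2 scale, or 3.11 without Srsf11-219, which passed the filter only through its labeled value. The gene (chromosome 3, 158010473 to 158036639, minus strand) has 19 annotated transcripts, many of them short. Srsf11-219, which ends 6454 bases from the start of the gene and has no intron, had 32.3 in labeled and 7.06 in unlabeled RNA, a log2 ratio of 2.44. Srsf11-216, which ends after 5821 bases, had 36.7 and 11.4, a ratio of 1.94. Srsf11-215 had 445 in labeled and 206 in unlabeled RNA and ended after 10113 bases. These are the 3 highest ratios among the 72 isoforms, and all are annotated as retained-intron transcripts. At the other end, Srsf11-211 had 90.4 in labeled and 241 in unlabeled RNA, a ratio of -1.17, and ended after 24745 bases.

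Over the 19 isoforms of Srsf11, Spearman's correlation of the distance between gene start and isoform end with the log2 ratio was -0.85, and -0.83 over 18 isoforms without Srsf11-219. The 4 isoforms that end before the middle of the gene had ratios of 0.96 to 2.44 (0.96 to 1.94 without Srsf11-219), and the 15 that end beyond it had ratios of -1.17 to 1.17, with a median of 0.22. The isoforms share exons and come from the same libraries, so this describes the gene and is not a test. Among the 765 genes with at least 10 isoforms, the median correlation was -0.19 (quartiles -0.53 and 0.24), and 3.27% were as low as Srsf11. The decay isoforms of Srsf11 end 13709 to 17248 bases from the gene start and its coding isoforms 17208 to 26166 bases. Class and position can therefore hardly be told apart in this gene. The decay and coding isoforms with the closest ends, Srsf11-206 and Srsf11-209, had log2 ratios of 0.61 and 0.45, a smaller gap than that of the classes. The retained-intron isoform Srsf11-203 ends after 13230 bases, before all decay isoforms of the gene. Its ratio of 0.17 was nevertheless below all of theirs (0.61 to 1.17). The other member genes with at least 6 isoforms had correlations of 0.79 (Srsf1, 7 isoforms), 0.03 (Srsf2, 6), -0.04 (Srsf5, 12) and 0.18 (Srsf10, 10).

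**Figure D4:**
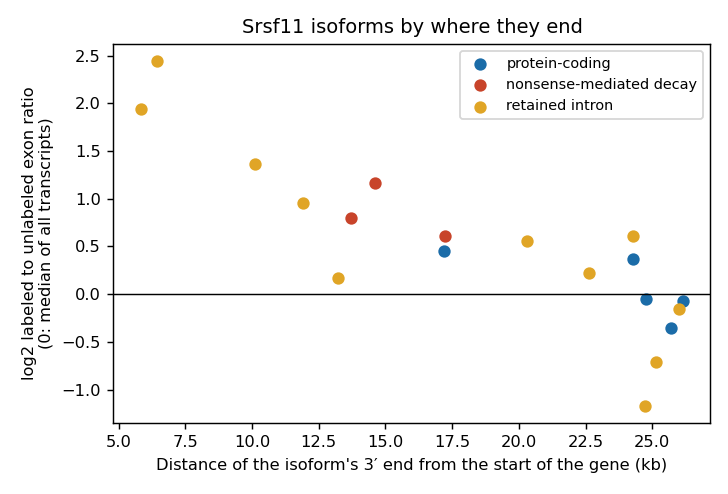
Log2 ratio of labeled to unlabeled exon value of the 19 Srsf11 isoforms (points, by class) against the distance of their 3′ end from the start of the gene in kb, relative to the median of all transcripts (0). The 4 isoforms that end nearest the start of the gene lie between 0.96 and 2.44, and all values below 0 belong to isoforms that end near its far end.

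The intron to exon ratio, which approximates the share of unprocessed transcripts, was available in both libraries for 70 isoforms. In the 26 protein-coding isoforms its median was 0.268 in labeled and 0.120 in unlabeled RNA. All protein-coding transcripts that passed the filter had medians of 0.440 and 0.0734. The SR coding isoforms thus had lower median ratios in new RNA and higher ones in the unlabeled library than coding transcripts at large. The nonsense-mediated decay isoforms had medians of 0.481 in labeled and 0.511 in unlabeled RNA, beside 0.509 and 0.0985 for all transcripts of that class. The retained-intron isoforms had 0.228 and 0.0616, beside 0.444 and 0.0904.

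The model behind these data takes intronic signal as unprocessed RNA, which should be rarer in unlabeled RNA. In 9 of the 70 isoforms, or 12.9%, the ratio was no higher in labeled than in unlabeled RNA, beside 6.3% of all transcripts. Of these, 8 were isoforms of Srsf1 and Srsf2. The unlabeled ratio itself was 1 or more in 5 isoforms, all from these genes, beside 3.73% of all transcripts. Srsf2-203 was the most extreme. Its intron had values of 4047 in labeled and 13831 in unlabeled RNA, and its ratios were 3.49 and 6.97. All of this intron lies within untranslated exon sequence of Srsf2-201, the main coding isoform. Srsf1-203 had ratios of 1.54 and 2.20, and its intron too lay wholly within untranslated exon sequence of the main coding isoform, Srsf1-201. In the decay isoforms Srsf1-204 and Srsf1-207, 79.0% and 74.4% of the intron bases did so, and the ratios in unlabeled RNA were 0.616 and 1.09.

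The share of intron bases that are exonic in another isoform of the same gene had a median of 89.9% in the 9 isoforms (range 49.4 to 100%). It had a median of 27.2% in the other 61. Among isoforms with at least 50% of such bases, 8 of 25 had a ratio no higher in labeled RNA, and among the rest 1 of 45 did, namely Srsf11-210. In the whole table the shares were 17% of 1789 and 5.64% of 34977 transcripts. High overlap did not always go with a high unlabeled ratio: Srsf2-201 had 81.8% of such bases and ratios of 0.114 in labeled and 0.0246 in unlabeled RNA. When only the 16 coding isoforms with less than 50% were used, the median ratios were 0.339 in labeled and 0.0912 in unlabeled RNA.

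**Figure D5:**
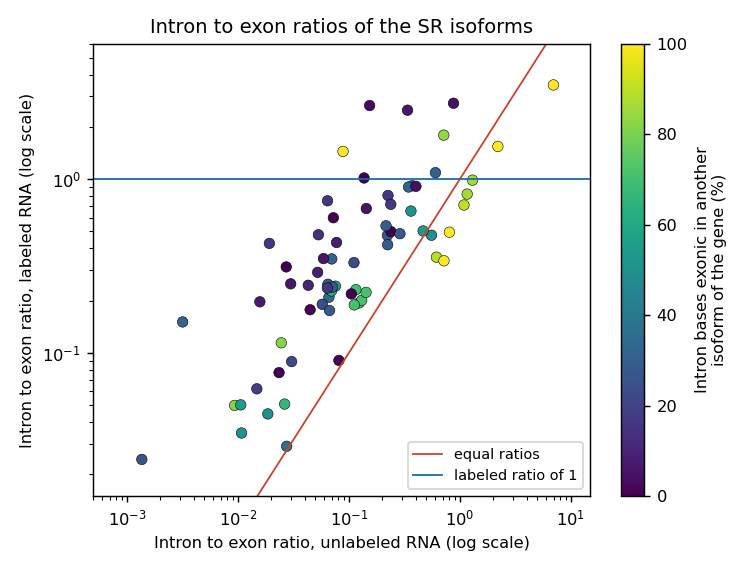
Intron to exon ratio in labeled RNA against that in unlabeled RNA (both log axes) for 70 SR isoforms, coloured by the percentage of their intron bases that are exonic in another isoform of the gene. The red line marks equal ratios, with 9 isoforms on or below it, and the blue line a labeled ratio of 1, with 9 isoforms on or above it.

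The labeled ratio was 1 or more in 9 isoforms, beside 17.3% of all transcripts. Srsf4 supplied 3 of its 4 isoforms to this group. The poison isoforms Srsf4-203 and Srsf4-204 had labeled ratios of 2.74 and 2.49 on exon values of 13.2 and 18.7, and Srsf4-201, with a retained intron, had 1.02. The coding isoform Srsf4-202 had 0.678 in labeled and 0.144 in unlabeled RNA. At the other end stood Srsf5, whose 12 isoforms had a median ratio of 0.101 in labeled and 0.0270 in unlabeled RNA, the lowest labeled median of the 10 genes.

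Processing and degradation rates were computed only where the model has an exact solution. The study's method also gives estimates by a least-distance fit where there is none, which were not computed here for the 43 isoforms that this concerns. An exact solution was found for 11 of the 70 isoforms, of which 9 had a single solution and 2 had a pair. Srsf10 supplied 8 of the 11. The degradation half-lives of its 6 isoforms with a single solution ran from 13.5 min (Srsf10-204, its most abundant coding isoform) to 89.9 min (Srsf10-206). The coding isoform Srsf4-202 had a half-life of 19.6 min and Srsf1-202 of 3.30 min. Srsf1-202 has a support level of 5, and 51.9% of its intron bases are exonic in another isoform. Srsf10-207 had solutions of 10.5 and 0.758 min. These values depend on RNA that is carried over between the pools. When 0.171 times the unlabeled value was subtracted from labeled RNA, a constant under which 1% of labeled to unlabeled ratios lie, Srsf10-204 had 355 min. Srsf4-202 and Srsf1-202 then had no solution. Without this subtraction no half-life was obtained for Srsf2, Srsf3, Srsf5, Srsf6, Srsf7 or Srsf9, nor for any decay isoform, so poison and coding isoforms were not compared by half-life.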

How the data were processed

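Labeled and unlabeled RNA from mouse embryonic stem cells was analysed, with 1 library each. The authors removed ribosomal reads, aligned the rest to introns and exons with STAR 2.5.0 and used RSEM for quantification, per the labels and the study's methods (builds mm10 and GRCm38). The deposited score per transcript is a relative abundance called TPM, and each column sums to 10 times a TPM total. It carries no read counts, so depth and counting error are unknown, and reads shared by isoforms were divided by RSEM. Strandedness is not given in the sources used here. Srsf2 overlaps Mfsd11 and Mettl23, and Srsf1, Srsf4 and Srsf11 overlap noncoding genes.

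Classes, support levels and coordinates came from GENCODE M21 (GRCm38). Transcripts needed a mean exon value of at least 10 and no value of 0. Log2 ratios had no pseudocount and were centred on the median of all transcripts that passed. A difference was called at 2-fold. No test was made. The study's rate model was solved on 4000 grid points, and only exact solutions were kept. The scripts were tested on simulated data. All members, the most abundant transcript of each class, the 5 highest and 5 lowest ratios and the poison-exon isoforms could be named. The members and lists were chosen with earlier results of these data known. Alternatives were other minimums (1 and 100), pseudocounts (1 and 10), centrings, leakage subtraction, 1 isoform per class and transcript support level. Python 3.11.15, numpy 2.4.6, pandas 2.3.3 and matplotlib 3.10.9 were used.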

Additional observations from a re-analysis of the deposited data

How the results depend on the processing

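No paired analysis was possible because each pool holds a single library, both numbered replicate 1, and nothing was tested. A log2 value or ratio was taken as moved when it changed by over 1.5-fold, and a count when it did so. Of 104 alternatives, 86 moved nothing by this measure, 13 moved a value and 5 turned a sign. The cause of these moves was not tested. The measure is coarse beside the within-gene medians: the retained-intron difference went from 0.20 to 0.053 without counting as moved. A minimum of 1 kept all 72 isoforms, so within-gene differences and intron to exon ratios could not change under it. The 86 therefore do not show that the results are stable.

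No share of all transcripts was taken under the settings below, so the counts of isoforms cannot be set beside one. Without centring, which shifts all transcripts by -0.25, the retained-intron median was -0.060 and 20 isoforms were at least 2-fold below. Centred on protein-coding transcripts, the decay median was 0.067, with 8 isoforms 2-fold above and 3 below. A minimum of 1 gave a retained-intron median of -0.062 and 20 isoforms 2-fold below. A minimum of 100 left 60 isoforms and gave a coding median of 0.011, a decay median of 0.31, 2 isoforms 2-fold below and 4 with a labeled intron to exon ratio of 1 or more. After leakage subtraction, 7 isoforms were 2-fold above and 20 below, and the labeled ratio reached 1 in 14. With support level 1 or 2, 42 isoforms were left, with 2 that were 2-fold above, 6 below and 5 whose labeled ratio reached 1, and 2 genes could be used for decay isoforms, both above coding.

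Within genes, the median difference from coding isoforms stayed above 0 under each alternative tried. It ran from 0.21 to 0.40 for decay, 0.053 to 0.47 for retained-intron and 0.14 to 0.40 for poison isoforms. The poison medians took in Srsf9 wherever its poison isoform was kept, although no direction is drawn from that isoform. At the main setting the poison median was 0.20 with Srsf9 and 0.30 over the 4 genes without it. The poison range was not taken without Srsf9. The poison-exon definition that admits the exon of Srsf6-201, the split by intron overlap, the values without isoforms under 10 in a library and the leakage-corrected rates were chosen after seeing the data. The correlation of isoform end with log2 ratio, that of Srsf11 included, was not among the planned results either. The size of the counting error is unknown, as the depth is not known.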

Other observations

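Other genes that act with SR proteins were described from lists of symbols, by the sum of their isoforms. Of 14 SR-like and SR-related genes, 13 were measured above the filter. Their median log2 ratio of labeled to unlabeled RNA was -0.11 relative to the median of all transcripts, and 8 were below 0. The lowest was Scaf1, a factor linked to the C-terminal domain of RNA polymerase II, at -1.97 on values of only 5.69 and 26.4. It was under 10 in labeled RNA and passed only through its unlabeled value, so no direction is drawn from it. Next was Srrm1, a splicing coactivator, at -1.30 (3133 in labeled and 9184 in unlabeled RNA). The highest were Rsrc1 at 0.67 and Luc7l3 at 0.45. At least 2-fold below were thus 2 of 13, Scaf1 among them, beside 13.3% of all genes.

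SR protein kinases phosphorylate the arginine and serine rich domain. Of 7 kinase genes, 6 passed the filter, with a median of 0.30. Clk1, which acts in the nucleus, had 3503 in labeled and 2578 in unlabeled RNA (0.69), and Clk3 had a ratio of 0.39. Clk4 lay at -0.03. Srpk1, which acts largely in the cytoplasm, was the lowest at -1.23, with 1160 in labeled and 3224 in unlabeled RNA. Tnpo3, the receptor that imports SR proteins into the nucleus, lay at -0.32. The 10 nonsense-mediated decay factors had a median of -0.24, and 6 were below 0. Upf1, the central helicase of the pathway, was the lowest at -1.61, on values of 15.0 and 54.1. Upf3b at 0.46 and Smg6, an endonuclease, at 0.35 were the highest. No gene of these lists that passed the filter was 2-fold above the median, beside 26.1% of all genes. The listed genes that did not pass had higher values in labeled than in unlabeled RNA, and no ratio was taken for them.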
